A study of Arabidopsis thaliana with 11 samples.

Results

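Expression of 6 genes of carbon fixation and its salvage pathway was followed across 3 organs of Col-0, a common wild-type line of Arabidopsis thaliana. RCA, SBPASE and PRK belong to the Calvin-Benson cycle. HPR, AT1G80380 (glycerate kinase) and AT1G11860 (the T protein of glycine decarboxylase) belong to photorespiration. They were chosen by the genes annotated to each probe set, with earlier results of these data known. Each has 1 probe set that names it alone, which gives 6 of 13350 genes named this way on the array. A further probe set lists HPR together with AT5G05370 and was not assigned to either gene.

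RNA was hybridised to 11 ATH1 arrays, an Affymetrix platform on which each gene is read by a set of short probes and summarised as 1 signal on a linear scale. The samples were flowers with unopened buds (4 arrays, 29 days after germination), the top 2 inches of the stem without siliques and pedicels (4 arrays, 29 days) and rosette leaves (3 arrays, 15 days). All plants were wild type and, per the labels, grew under fluorescent light of 125 umol per square metre and second for 16 h a day at 25 C, with nights at 20 C. The array titles carry the code GH or GC: 2 GH and 2 GC arrays in flower, 2 and 2 in stem, and 2 GH arrays and 1 GC array in leaf. A greenhouse is named for the GH leaf arrays and a controlled system for all others, so what the code means for flower and stem is not settled by the labels. Leaf plants were also younger than flower and stem plants, so age and tissue cannot be told apart in comparisons with leaf. The growth setting named for the 2 GH leaf arrays also differs from that of all flower and stem arrays, so for them it cannot be told apart from tissue either. If GH has another meaning in leaf, adjusting for the code need not remove this, and comparing GH with GC over the tissues mixes the meanings. Whether replicates came from separate plants is not given, so the p-values rest on a spread between arrays that may be technical only. In whole organs, fewer green cells and less RNA per green cell cannot be told apart either.

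The Calvin-Benson cycle runs in the chloroplast stroma, where Rubisco joins carbon dioxide to ribulose bisphosphate and the remaining enzymes reduce the product and rebuild the acceptor. Rubisco also takes oxygen, and the phosphoglycolate formed is returned to the cycle by photorespiration, which passes through chloroplast, peroxisome and mitochondrion. Both pathways are most active in green, illuminated leaf cells.

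The tissue labels were checked against marker genes, of which 3 of 6 for flower and 3 of 6 for stem are named on the array. The tapetum beta-glucosidase gene ATA27 had signals of 937 to 1082 in flower and lay below 28.1, the dim limit used here (the 40th percentile of all values), on every stem and leaf array. IRX15, a gene of xylan formation in secondary walls, had 129 to 340 in stem and lay below the limit in flower and leaf. The stem markers GUT2 and IRX15-L were also highest in stem but not absent elsewhere: GUT2 lay above the limit on all flower and leaf arrays, and IRX15-L on 3 of 4 flower arrays and 1 of 3 leaf arrays. One array stood apart in RNA quality: the 3' over 5' signal ratio of the actin control, which rises when RNA is broken, reached 19.6 on stem GH 1, whereas all other arrays had 0.781 to 2.90. The mean log2 ratio over 3 control genes was 0.53 to 0.90 in flower, 0.01 to 0.24 on the other stem arrays and -0.24 to 0.09 in leaf. For the 6 genes, the tissue tests that rest on stem GH 1 are also given without it. Overlap counts, the profiles most like the 6 genes and the other listed genes are given with all arrays only.

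All 6 genes lay above the dim limit on all 11 arrays, and for all 6 the mean signal was lowest in flower, intermediate in stem and highest in leaf. Flower averaged 23.5% (HPR) to 35.7% (AT1G11860) of the leaf mean, and stem 58.4% (HPR) to 74.97% (AT1G11860). On the log2 scale, with all arrays, the step between stem and leaf was smaller than the step between flower and stem for each of the 6 genes. This comparison of sizes was not tested, and it rests in part on stem GH 1. Without that array PRK stood at -0.90 in stem against leaf and -0.89 in flower against stem, and the steps of AT1G80380 were about equal. For SBPASE and AT1G11860 the step between stem and leaf did not pass with all arrays. Signals of different probe sets cannot be set against each other, so only differences between arrays are compared.

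**Figure D1:**
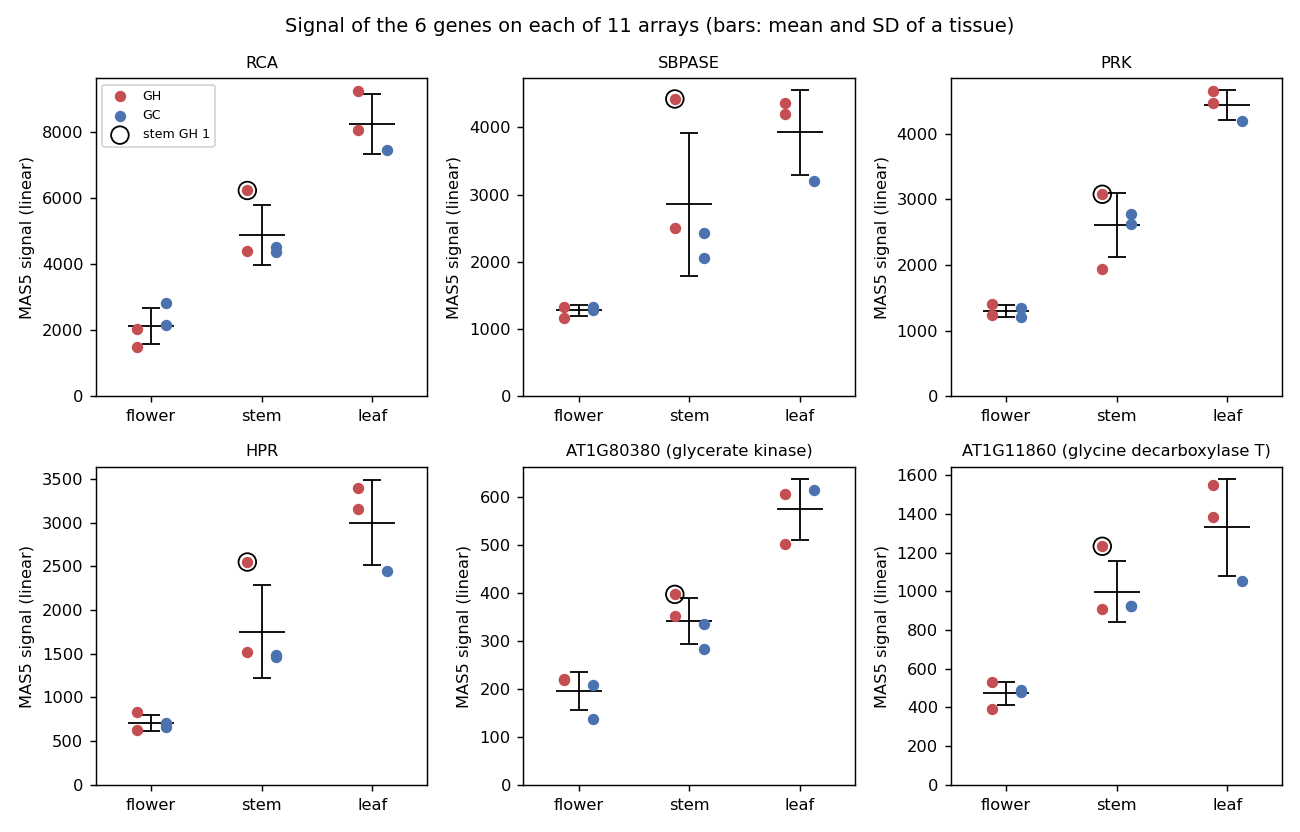
MAS5 signal (linear, vertical axis from 0) of each of the 6 genes on each array, by tissue, with red points for GH and blue for GC arrays, and bars for mean and SD of a tissue (n = 4 flower, 4 stem, 3 leaf). Every flower array lies below every stem and leaf array, and the circled array, stem GH 1, is the highest stem array for all 6 genes.

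RCA encodes Rubisco activase, which removes inhibitory sugar phosphates from Rubisco so that it can work in the light. Its signal was 2021 and 1486 on the flower GH arrays and 2169 and 2815 on the flower GC arrays. In stem it was 6228 and 4395 (GH) and 4509 and 4367 (GC), and in leaf 8073 and 9233 (GH) and 7446 (GC). The 3 organs did not overlap. Of the stem arrays, stem GH 1 stood above the other 3, which were close to each other. The tissue means were 2123 ± 547 in flower (SD, n = 4), 4875 ± 905 in stem (SD, n = 4) and 8250.5 ± 906 in leaf (SD, n = 3). RCA was lower in flower than in leaf (log2 fold change -1.998 ± 0.21, SE, limma adjusted p = 2.5e-05), lower in flower than in stem (-1.22 ± 0.20, adjusted p = 4.7e-04) and lower in stem than in leaf (-0.78 ± 0.21, adjusted p = 0.0123). The SD in flower was 25.8% of the mean, the widest relative spread of the 6 genes in that organ.

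SBPASE encodes sedoheptulose-bisphosphatase, an enzyme found in the regeneration phase of the cycle that commits carbon to rebuilding the acceptor. In flower it was nearly flat, with 1327 and 1168 on the GH arrays and 1329 and 1275 on the GC arrays. In stem it was 4422 and 2507 (GH) and 2429 and 2051 (GC), and in leaf 4204 and 4369 (GH) and 3196 (GC). Stem GH 1 thus exceeded every leaf array, while the other stem arrays lay below every leaf array. SBPASE fell in flower, with log2 fold changes of -1.56 ± 0.20 against leaf (SE, adjusted p = 1.1e-04) and -1.098 ± 0.19 against stem (adjusted p = 7.2e-04). For stem against leaf the log2 difference was -0.46 ± 0.20 (SE, adjusted p = 0.0939), which did not pass.

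PRK encodes phosphoribulokinase, which makes the carbon dioxide acceptor in the last step of the cycle. Flower signals were 1403 and 1236 (GH) and 1202 and 1342 (GC). Stem signals were 3077 and 1934 (GH) and 2781 and 2627 (GC), and leaf signals 4464 and 4655 (GH) and 4200.1 (GC). The organs were fully separate, and leaf was tight, with an SD of 5.15% of the mean. In stem the 2 GH arrays were the highest and the lowest. PRK was lower in flower than in leaf (log2 -1.78 ± 0.16, adjusted p = 7.6e-06), lower in flower than in stem (-0.99 ± 0.15, adjusted p = 2.9e-04) and lower in stem than in leaf (-0.79 ± 0.16, adjusted p = 0.00220).

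HPR encodes the peroxisomal hydroxypyruvate reductase, which makes glycerate near the end of photorespiration. It had 829.1 and 626 on the flower GH arrays and 659 and 711 on the flower GC arrays. Stem had 2548 and 1516 (GH) and 1484 and 1458 (GC), and leaf 3394 and 3154 (GH) and 2451 (GC). Flower was separate from both other organs, and stem and leaf overlapped through 1 array each, stem GH 1 being above leaf GC 1. HPR was lower in flower than in leaf (log2 fold change -2.03 ± 0.18, SE, adjusted p = 7.3e-06) and lower in flower than in stem (-1.28 ± 0.17, adjusted p = 1.2e-04). In stem against leaf its log2 fold change was -0.76 ± 0.18 (SE, adjusted p = 0.00615). The probe set that lists HPR and AT5G05370 showed no such steps, with 457 ± 96.2 in flower (SD, n = 4), 438 ± 193 in stem (SD, n = 4) and 485 ± 105 in leaf (SD, n = 3), and a flower against leaf log2 difference of 0.01 ± 0.19 (SE, adjusted p = 0.965).

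AT1G80380 encodes glycerate kinase, the chloroplast enzyme that returns glycerate to the Calvin-Benson cycle as phosphoglycerate. Its flower signals were 218 and 222 (GH) and 137 and 208 (GC), with flower GC 1 the lowest. Stem signals were 398 and 352 (GH) and 283 and 336 (GC), and leaf signals 502 and 607 (GH) and 616 (GC). The organs did not overlap. The log2 differences were -1.54 ± 0.18 for flower against leaf (SE, adjusted p = 4.7e-05), -0.82 ± 0.16 for flower against stem (adjusted p = 0.00200) and -0.72 ± 0.18 for stem against leaf (adjusted p = 0.00718).

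AT1G11860 encodes the T protein of the mitochondrial glycine decarboxylase complex, the step of photorespiration that releases carbon dioxide and ammonia. Flower had 534 and 392 (GH) and 489 and 482 (GC). Stem had 1233 and 908 (GH) and 926 and 922 (GC), and leaf 1551 and 1383 (GH) and 1055 (GC). Apart from stem GH 1, the stem arrays were close to each other and below every leaf array. AT1G11860 also fell in flower, at -1.45 ± 0.17 against leaf (log2, SE, adjusted p = 4.3e-05) and -1.07 ± 0.15 against stem (adjusted p = 2.1e-04). The stem against leaf difference was -0.38 ± 0.17 (SE, adjusted p = 0.0889) and did not pass.

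The comparison of flower with leaf asked which transcripts differ between a reproductive organ and the young rosette. All 6 genes were lower in flower at an adjusted p under 0.05, where 14.4% of the 15718 probe sets tested were called lower, and all 6 had non-overlapping organs, as 18.2% of probe sets did in that direction. Their log2 fold changes ran between -2.03 and -1.45 with a median of -1.67, beside a median of 0.16 over all probe sets tested. Relative to that median the 6 genes lay at -2.19 (HPR), -2.16 (RCA), -1.94 (PRK), -1.72 (SBPASE), -1.70 (AT1G80380) and -1.61 (AT1G11860). Quantile normalization, which brought the median of all probe sets near 0, gave smaller falls, at -1.66 (HPR), -1.496 (AT1G80380), -1.38 (RCA), -1.31 (PRK), -1.21 (AT1G11860) and -1.14 (SBPASE), and all 6 passed. Only 2.35% of probe sets had a lower log2 fold change than HPR, and 5.71% a lower one than AT1G11860. The RNA control ratio was higher in flower than in leaf, as given above. With it as a covariate, a setting in the fit and not a test of cause, the 6 genes had log2 fold changes of -2.29 to -1.57 and all 6 passed.

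The comparison of flower with stem held age at 29 days. Again all 6 genes were lower in flower, where 15.4% of all probe sets were, and all 6 had non-overlapping organs, as 13.8% of probe sets did. The log2 fold changes were between -1.28 (HPR) and -0.82 (AT1G80380), with a median of -1.08 beside 0.17 over all probe sets. Leaving out stem GH 1 gave -1.11 to -0.77, and all 6 calls held. Within the GC arrays alone and within the GH arrays alone all 6 also passed.

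Stem and leaf, both green organs, were then compared. Among the 6 genes, 4 (RCA, PRK, HPR and AT1G80380) were called lower in stem, where 21.6% of all probe sets were. For 3 of them, RCA, PRK and AT1G80380, the organs did not overlap, as 23.6% of probe sets did. The median log2 fold change of the 6 genes was -0.74 beside -0.07 over all probe sets, and 19.9% (PRK) to 34.9% (AT1G11860) of probe sets had lower values. Without stem GH 1 all 6 genes passed, SBPASE at -0.70 ± 0.14 (SE, adjusted p = 0.00214) and AT1G11860 at -0.49 ± 0.16 (adjusted p = 0.0354). Without leaf GC 1 AT1G11860 also passed (adjusted p = 0.0487) but AT1G80380 did not (0.0608), and without leaf GH 2 RCA did not (0.0539). Within the GC arrays, with 1 leaf array assumed to vary like the rest, only HPR passed (adjusted p = 0.0348), and within the GH arrays only PRK did (0.0338). The fold changes of all 6 genes were below 0 within either code. RCA also missed the threshold after quantile normalization (-0.51 ± 0.22, adjusted p = 0.0863).

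Taken in order, 4 of the 6 genes passed both steps, stem below leaf and flower below stem, as 2.3% of all probe sets did. For 3 genes (RCA, PRK and AT1G80380) no array of 1 organ overlapped with the next, as for 2.07% of probe sets. The stem against leaf step of SBPASE and AT1G11860 did not pass with all 11 arrays in the fit, apart from SBPASE with the 3' over 5' ratio as a covariate (-0.74 ± 0.17, adjusted p = 0.00594).

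**Figure D2:**
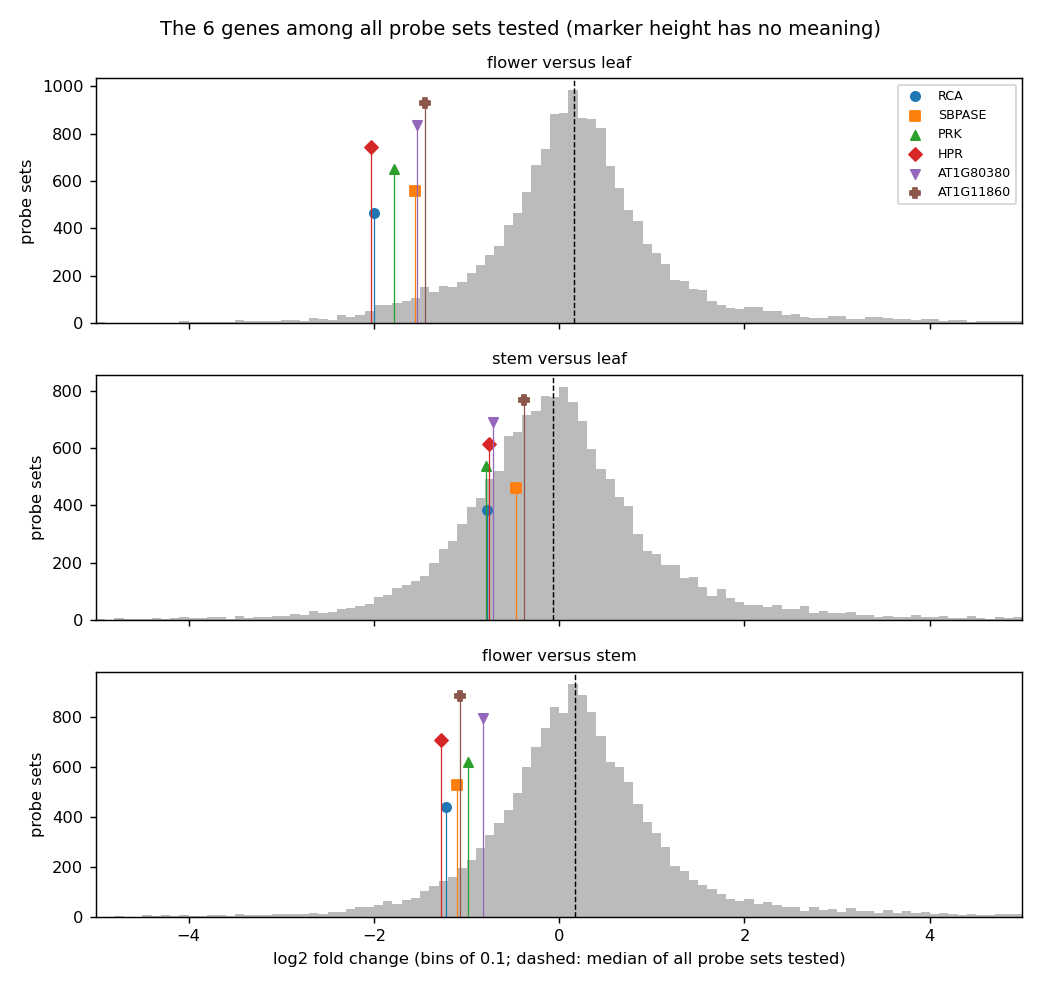
Number of probe sets (vertical axis) by log2 fold change (horizontal axis, bins of 0.1) for each tissue comparison over the 15718 probe sets tested, with coloured markers for the 6 genes and a dashed line for the median of all. The 6 genes lie in the lower tail in both flower comparisons and nearer the bulk in stem versus leaf, where their median is -0.74.

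Stem GH 1 was the highest stem array for all 6 genes, which held for 31.3% of the probe sets tested. Its signal was 1.90 times the mean of the other stem arrays for SBPASE, 1.71 times for HPR, 1.41 times for RCA, 1.34 times for AT1G11860, 1.26 times for PRK and 1.23 times for AT1G80380. The median of this ratio over all probe sets tested was 0.985. For SBPASE, HPR and AT1G11860 the array reached into the leaf range or past it. Its actin ratio of 19.6 goes with these values, and the part of RNA quality in them was not tested.

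**Figure D3:**
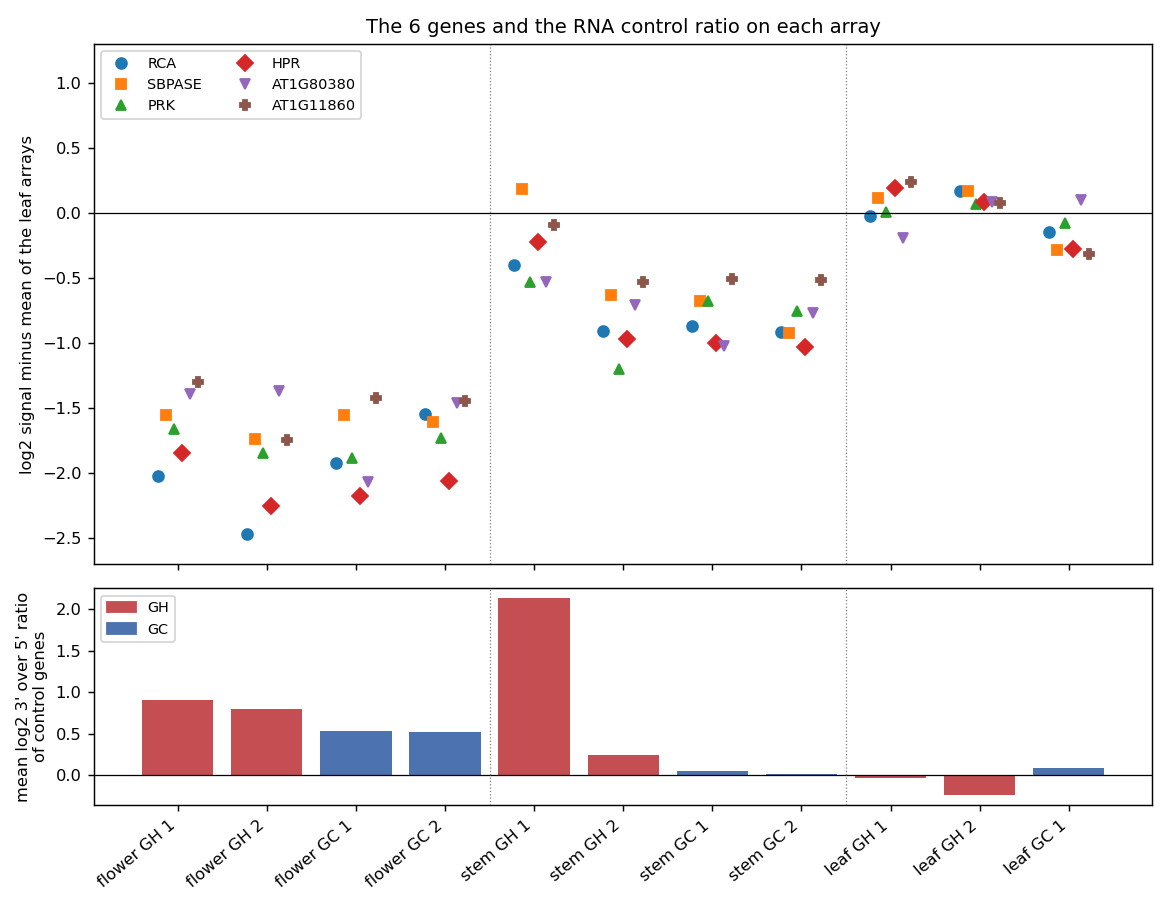
Upper panel: log2 signal of each of the 6 genes minus its mean over the leaf arrays (vertical axis) on each array (horizontal axis). Lower panel: mean log2 3' over 5' ratio of 3 control genes, red for GH and blue for GC. Stem GH 1 has the highest ratio, 2.13, and the highest stem value of every gene.

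The 6 genes followed each other closely across organs. Pearson's r of log2 signals over the 11 arrays was 0.874 to 0.985 for the 15 pairs, with a median of 0.952, a description dominated by the 3 organs. After each organ's mean was taken out, r was -0.05 to 0.92 with a median of 0.54, and without stem GH 1 -0.35 to 0.92 with a median of 0.32. The pair HPR and AT1G11860 kept an r of 0.92 within organs without that array. The glycerate kinase gene AT1G80380 was the least alike, with r of -0.35 to 0.01 to the other 5 genes on the same terms. Its low signal on flower GC 1, 137 against 208 to 222 on the other flower arrays, was kept in these values.

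The GH and GC arrays were compared because each organ holds both codes. None of the 6 genes passed over the tissues, where 0.00636% of probe sets did (1 of 15718), and none of the 6 had an unadjusted p under 0.05 in limma. The log2 differences, GH minus GC, were largest for SBPASE at 0.30 (95% interval -0.06 to 0.65) and HPR at 0.29 (-0.03 to 0.61), and smallest for PRK at -0.01 (-0.29 to 0.27). In flower none passed, beside 0.0254% of probe sets. RCA there had a mean of 1754 on the GH arrays and 2492 on the GC arrays, which did not overlap, a log2 difference of -0.51 ± 0.23 (SE, unadjusted p = 0.0539, adjusted p = 0.999). In stem none passed, beside 0.0827% of probe sets, and SBPASE had a log2 difference of 0.58 ± 0.24 (unadjusted p = 0.0409, adjusted p = 0.407). Without stem GH 1 the SBPASE difference was 0.17, and with stem GH 1 as the lone GH array it was 0.99 (adjusted p = 0.0123), as HPR then was at 0.79 (adjusted p = 0.0408). These last values set 1 array, the one with the actin ratio of 19.6, against 2, with its spread assumed to be that of the other groups. The GH effect itself did not differ detectably between flower and stem for any of the 6 genes, in a comparison that called 0.0% of probe sets. RCA came nearest there, at -0.75 ± 0.33 (unadjusted p = 0.0473, adjusted p = 0.932). Groups of 2 arrays leave wide intervals, so equal levels in GH and GC are not shown.

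Other genes of both pathways were read from lists matched by locus. Of 26 Calvin-Benson genes listed, 6 are named alone on a probe set, 3 of them RCA, SBPASE and PRK. The other 3 did not move as one. The phosphoglycerate kinase gene AT1G56190 fell in flower against leaf (log2 -0.85 ± 0.16, adjusted p = 0.00149) and stood at -0.03 ± 0.16 in stem against leaf (adjusted p = 0.886). AT5G64380, of the fructose-bisphosphatase family, had a flower against leaf difference of -0.57 ± 0.24, which did not pass (adjusted p = 0.0921), and fell in stem against leaf (-0.98 ± 0.24, adjusted p = 0.00734). The plastid gene rbcL, which encodes the large subunit of Rubisco, ran the opposite way to RCA, the gene of its activase. Flower arrays had rbcL signals of 84.3 to 161 and stem arrays 119 to 186, against 24.5 to 32.2 on leaf arrays. Of the leaf arrays 2 were above the dim limit. It rose by 2.04 ± 0.25 in flower against leaf and by 2.33 ± 0.25 in stem against leaf on the log2 scale (adjusted p = 6.4e-05 and 2.7e-05). The 5S ribosomal RNA signal moved with it, at 78.1 to 139 in flower, 49.4 to 196 in stem and 1.73 to 6.47 in leaf, and its part in the rbcL values was not tested. Over the 6 Calvin-Benson genes measured, 4 fell and 1 rose in flower against leaf, with a median log2 fold change of -1.20. RCA, SBPASE and PRK, already given above, are among the 4. Without them 1 of 3 fell and 1 rose, with a median of -0.57. Of all probe sets tested, 14.4% were called lower and 21.3% higher in flower than in leaf. For stem against leaf these shares were 21.6% lower and 17.9% higher.

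Of 32 photorespiration genes listed, 8 are named, 3 of them HPR, AT1G80380 and AT1G11860. In flower against leaf 6 of the 8 fell and 1 rose, where 14.4% of all probe sets were lower and 21.3% higher. In stem against leaf 5 fell and 1 rose, where 21.6% were lower and 17.9% higher. These counts include the 3 genes already reported. Without them 3 of 5 fell and 1 rose in each comparison, with median log2 fold changes of -0.65 in flower and -0.43 in stem against leaf. LrgB, the plastid glycolate and glycerate transporter, fell in both (-1.60 ± 0.15 and -0.57 ± 0.15, adjusted p = 9.4e-06 and 0.00934). AT1G79870, the cytosolic hydroxypyruvate reductase, changed less than HPR but passed in both (-0.65 ± 0.14 and -0.43 ± 0.14, adjusted p = 0.00404 and 0.0318). AT4G22840, a transporter of the bile acid sodium symporter family, was level, with 69.5 ± 11.1 in flower, 68.0 ± 21.99 in stem (SD, n = 4 each) and 68.6 ± 7.23 in leaf (SD, n = 3). This gene passed in none of the tissue comparisons.

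The 2 measured genes of the H protein, the lipoyl-carrying partner of the T protein in glycine decarboxylase, went in opposite directions against leaf. AT1G32470 had 595 ± 30.2 in flower (SD, n = 4), 1074 ± 213 in stem (SD, n = 4) and 1543 ± 152 in leaf (SD, n = 3), the order of AT1G11860. AT2G35120 had 324 ± 60.1 in flower (SD, n = 4), 781 ± 60.9 in stem (SD, n = 4) and 146 ± 25.0 in leaf (SD, n = 3), so stem was highest and leaf lowest, with no overlap between organs. The log2 differences of AT1G32470 were -1.34 ± 0.14 in flower against leaf and -0.51 ± 0.14 in stem against leaf (adjusted p = 2.3e-05 and 0.0138). Those of AT2G35120 were 1.098 ± 0.14 and 2.38 ± 0.14 (adjusted p = 1.1e-04 and 4.6e-07). In flower against stem both genes fell, where 15.4% of all probe sets were lower. AT1G32470 stood there at -0.83 ± 0.13 (adjusted p = 3.8e-04) and AT2G35120 at -1.28 ± 0.13 (adjusted p = 2.1e-05). Cross-hybridisation between the 2 probe sets was not tested.

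**Figure D4:**
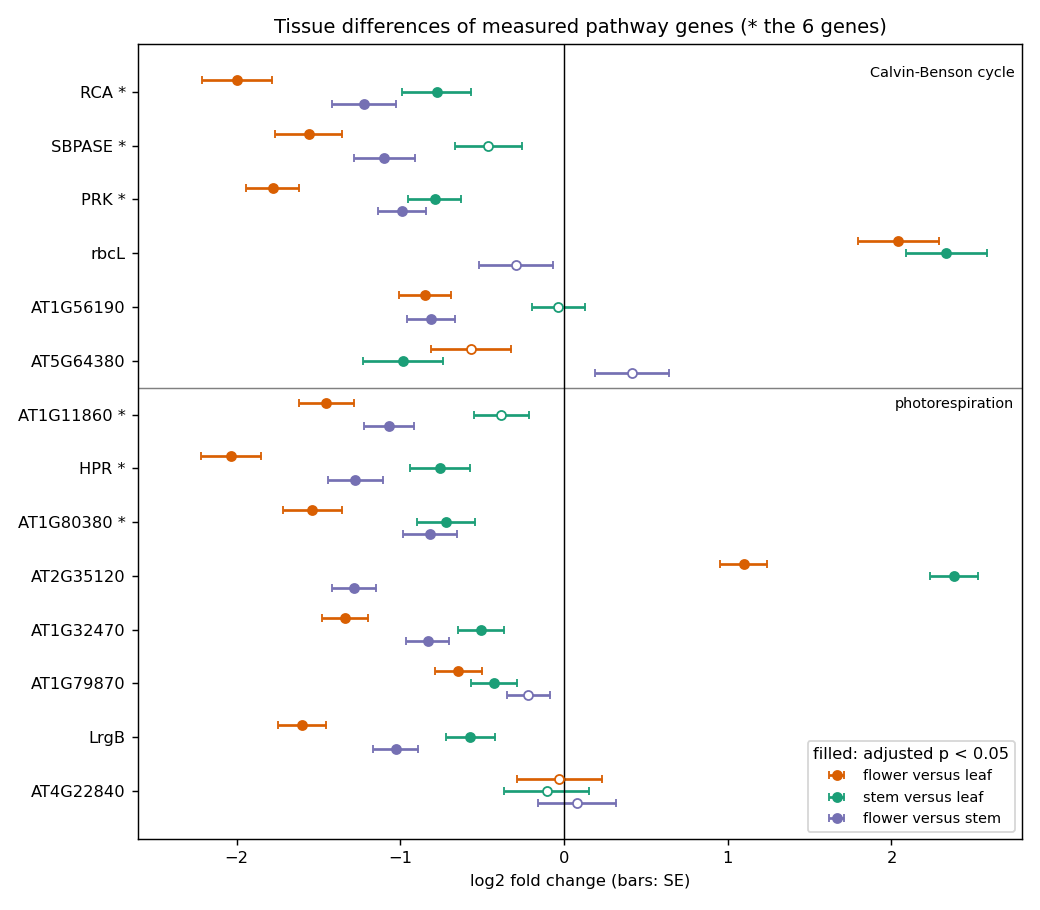
Log2 fold change with SE (horizontal axis) of the 14 measured genes of both pathways (rows, with the 6 genes starred) in flower versus leaf, stem versus leaf and flower versus stem, filled where the adjusted p was under 0.05. Most genes lie left of 0, whereas rbcL and AT2G35120 lie right of 0 in both comparisons with leaf.

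Plastid thioredoxins and their reductases formed a further list. Thioredoxins of the f and m types reduce regulatory disulfides of PRK and SBPASE, and electrons reach them through ferredoxin-thioredoxin reductase, whereas the x and y types are known as donors to antioxidant enzymes. Of 14 such genes 7 are named. In flower against leaf 6 fell and 1 rose, beside 14.4% lower and 21.3% higher over all probe sets. In stem against leaf 6 fell and none rose, beside 21.6% lower and 17.9% higher. The median log2 fold changes against leaf were -1.51 and -1.20. In flower against stem 3 of the 7 fell, 1 rose and 3 did not pass, with a median of -0.39. Over all 15718 probe sets, 15.4% were lower and 4008 were higher in that comparison. THX, thioredoxin x, had log2 fold changes of -2.36 and -1.47 in flower and stem against leaf (adjusted p = 1.3e-06 and 4.0e-05). TRXF2, thioredoxin f2, had -2.03 and -1.35 (adjusted p = 1.4e-05 and 2.9e-04). NTRC, a thioredoxin reductase with its own thioredoxin domain, had -1.51 and -1.31 (adjusted p = 1.0e-05 and 3.3e-05). AT2G04700, the catalytic subunit of ferredoxin-thioredoxin reductase, had -1.301 and -0.59 (adjusted p = 3.4e-05 and 0.00660). The gene that rose in flower was TY1, thioredoxin y1, by 0.72 (adjusted p = 0.0414), and it was chosen here after its value was seen.

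The oxidative pentose phosphate pathway uses many of the same sugar phosphates in the reverse sense, to make NADPH without light. Of its 16 listed genes 4 are named, and in flower against leaf none fell and 1 rose, shares near the 14.4% lower and 21.3% higher over all probe sets. The gene that rose, AT3G02360, a 6-phosphogluconate dehydrogenase, had 780.3 ± 31.6 in flower (SD, n = 4), 1266 ± 434 in stem (SD, n = 4) and 421 ± 9.32 in leaf (SD, n = 3). Its log2 rises were 0.90 ± 0.21 and 1.54 ± 0.21 in flower and stem against leaf (adjusted p = 0.00526 and 1.4e-04). The other 3, AT1G64190, AT5G41670 and AT1G12230, had flower against leaf differences of 0.21 ± 0.15, 0.01 ± 0.16 and -0.06 ± 0.21, none of which passed. In stem against leaf AT5G41670 and AT1G12230 fell (-0.50 ± 0.16 and -0.62 ± 0.21, adjusted p = 0.0240 and 0.0313). In flower against stem 3 of the 4 rose, where 4008 of 15718 probe sets were higher and 15.4% lower. AT1G64190, AT5G41670 and AT1G12230 stood there at 0.59, 0.51 and 0.56 (adjusted p = 0.00489, 0.0138 and 0.0330). AT3G02360 fell in that comparison (-0.64 ± 0.19, adjusted p = 0.0183). None of 6 listed genes of phosphorylated serine synthesis is named on the array, and they were not analysed here.

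For scale, nuclear light-harvesting genes were read too, though of 21 listed only 3 are named. In flower and in stem against leaf 2 of the 3 fell, where 14.4% and 21.6% of all probe sets were lower. These were LHCB4.1 and LHCB4.2, genes whose proteins feed the photosystem that drives the cycle. Their log2 fold changes were -1.82 ± 0.21 and -2.19 ± 0.14 in flower against leaf and -0.61 ± 0.21 and -0.77 ± 0.14 in stem against leaf (SE). The 6 genes spanned -2.03 to -1.45 and -0.79 to -0.38 in the same comparisons. LHCB4.3 passed in neither (-0.60 ± 0.30 and 0.14 ± 0.30, adjusted p = 0.146 and 0.743). A difference between the 2 groups of genes was not tested.

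Profiles most like the 6 genes were taken by Pearson's r of log2 signals over the 11 arrays among 8577 other probe sets of 1 gene. Closest to the mean of the 6 scaled profiles were LrgB (r = 0.990), AT3G61870 (0.986), PSB27, a photosystem II assembly factor gene (0.984), AT5G16010 (0.983) and AT2G32160 (0.982). LrgB was also closest to HPR (0.992), and it lies near PRK in the genome with 1 gene between them in the RefSeq annotation. SBPASE was closest to AT1G32470 (0.982) and then LrgB (0.976). RCA was closest to AT5G11840 and AT3G61870 (both 0.992), PRK to AT5G16010 (0.988) and AT5G19240 (0.984), and AT1G11860 to AT2G32160 (0.985) and AT3G61870 (0.982). HPR had AT3G61870 second (0.983). AT1G80380 was closest to BCAT4, an aminotransferase of methionine chain elongation (0.973), and AT5G25840 (0.972). All such values rest on the same 3 organs and share the same arrays.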

How the data were processed

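The authors deposited 1 intensity per probe set and array, made with MAS5 according to the submitters' processing notes and linear in scale. The sources used here give no version, scaling target or detection call. The trimmed mean (2% off each end) was 100.0 on every array. The number of arrays limits the precision.

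Genes were taken from the platform annotation. Of 22746 probe sets that are not controls, 13513 name 1 gene, 503 several and 8730 none. Signals were taken to log2 as deposited. Probe sets with at least 3 of 11 arrays above the dim limit were kept (a signal of 28.1), which left 15718. Linear models fitted by lmFit and moderated by eBayes with its trend option on (limma 3.58.1, R 4.3.3) used all 11 arrays, with the code as covariate for tissues, tissue as covariate for GH against GC over the tissues, and 1 mean per tissue and code otherwise. The p-values were adjusted by Benjamini-Hochberg over all probe sets kept, with a threshold of 0.05. Errors of signals are SD and of log2 fold changes SE. Each fit was also run on simulated data with independent noise and planted changes. Those data held no broken RNA and no mixing of tissue with age or growth setting, so they do not bear on these limits.

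The genes and lists were chosen with earlier results of these data known, and the lists by locus. The 6 genes and every measured gene of both pathways are named, with up to 4 of each other list by lowest adjusted p in flower against leaf, 2 profiles most like each gene and 5 most like their mean. Alternatives were a pseudocount of 8.86, a stricter filter (60th percentile) or none, quantile normalization, 75th percentile centring, eBayes without the trend, a replicate block, a covariate for the 3' over 5' ratio, each array left out, no code covariate, each code alone and the compared tissues alone.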

Additional observations from a re-analysis of the deposited data

Results flagged for a closer look

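Of 12 sets of 4 arrays (6 genes in flower and in stem), 4 held an array far from the rest by Dixon's criterion, which chance passes in about 1 of 20 sets. In stem these were the RCA signal of 6228, the HPR signal of 2548 and the AT1G11860 signal of 1233, all on stem GH 1, the array with the highest 3' over 5' control ratios. In flower it was the AT1G80380 signal of 137 on flower GC 1.

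For 2 genes every GH array lay on one side of the GC arrays in one organ and on the other side in another. Groups this small often separate by chance. The share of all probe sets that do the same was not counted, so this is not read as a result about the 2 genes. The difference between organs was not tested with leaf, which has 1 GC array. RCA had a log2 difference, GH minus GC, of -0.51 in flower and 0.21 in leaf. AT1G80380 had 0.38 in flower and 0.28 in stem, and -0.16 in leaf.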

How the results depend on the processing

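All 6 genes kept their calls in flower against leaf and in flower against stem under all 23 alternatives of each. In stem against leaf 4 of 6 genes passed as reported, 1 among GC arrays alone, 1 among GH arrays alone, and 3 to 6 when 1 array was left out. Its lost calls were RCA with quantile normalization (adjusted p = 0.0863), without leaf GH 2 and within either code, PRK within GC (0.0538), HPR within GH (0.0915), and AT1G80380 without leaf GC 1 and within GC (0.0642) or GH (0.0576). SBPASE passed with the 3' over 5' covariate (-0.74, adjusted p = 0.00594). No fold change of the 6 genes reversed in a called tissue comparison.

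Over all probe sets, flower against leaf gave 5617 calls, and 2612 within GC; stem against leaf 6222, and 3027 within GC; flower against stem 6421, 4257 within GC and 2976 within GH. The split in flower against leaf was 3354 higher and 2263 lower as deposited, and 2648 and 2702 after centring. In flower against stem it was 4008 and 2413, against 3172 and 2962 with quantile normalization and 3201 and 3060 after centring.

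GH against GC over the tissues gave 1 call, 0 with centring, without the trend or with the replicate block, 9 on flower and stem alone, and 0 to 13 when 1 array was left out. In flower it gave 4, with 9 (pseudocount), 1 (no trend), 13 (replicate block) and 0 to 10 (1 array out). In stem it gave 13, with 8 (quantile), 6 (pseudocount), 30 (3' over 5' covariate) and 2 to 1155 (1 array out, the most without stem GH 2); of the 6 genes 0 to 2 then passed. The difference of the GH effect gave 0, with 4 (no trend) and 0 to 210 (1 array out, the most without stem GH 2). The causes were not tested. Replicate numbers did not pair the arrays: deviations of same-numbered arrays had r of -0.07 to 0.07 over 10 pairs of groups. The replicate block changed no call of the 6 genes.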
